A study of Mus musculus with 6 samples.

Results

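The mouse mitochondrial genome carries 37 genes, and all 37 had a row in the count tables, of 51826 Ensembl identifiers in all. Members were taken by position, as every gene that GENCODE release M21 places on the mitochondrial chromosome, and comprise 13 mRNAs, 2 rRNAs and 22 tRNAs. A total of 28 genes lie on the annotated plus strand. The other 9, mt-Nd6 and 8 tRNAs, lie on the minus strand. The 6 samples are testis RNA from mice of the C57BL/6J strain aged 8 weeks, 3 of them wild type and 3 labelled KIFC1 knockout. KIFC1 is a kinesin-14 motor that moves towards microtubule minus ends, and the series title places it in meiotic recombination and male fertility. Which allele was used, and whether KIFC1 was removed in all cells or in germ cells, is not given in the sources used here, nor whether each sample came from 1 animal.

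Both strands of the circular mitochondrial genome are transcribed as long precursors by the polymerase POLRMT with the factors TFAM and TFB2M. The tRNAs lie between most of the longer genes and are cut out at both ends, which releases the mRNAs and rRNAs. The mRNAs encode core subunits of respiratory complexes I, III, IV and V, and every other subunit of these complexes, like all factors that make, stabilise or degrade mitochondrial RNA, is encoded in the nucleus. In testis, mitochondria change shape during meiosis and are later wound around the sperm midpiece.

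Several mitochondrial genes share bases, which bears on what a count per gene can hold. The mt-Atp8 and mt-Atp6 genes share 43 bases (chrM:7927-7969, mm10, plus strand), mt-Nd5 and mt-Nd6 share 14 on opposite strands, and mt-Nd4l and mt-Nd4 share 7. Reads across such a stretch fit more than one gene, and how the authors' counting treated them is not given in the sources used here. The stretches are shown because mt-Atp6, mt-Nd6, mt-Nd5 and mt-Nd4l, which are among the genes with the largest fold changes below, meet a neighbour there. In the first line capitals mark the start codon of mt-Atp6 and the stop codon of mt-Atp8. In the other lines they mark the shared bases at the end of mt-Nd5 (chrM:13536-13565) and of mt-Nd4l (chrM:10144-10173).
mt-Atp8 and mt-Atp6: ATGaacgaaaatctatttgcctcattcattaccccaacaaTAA
mt-Nd5 and mt-Nd6: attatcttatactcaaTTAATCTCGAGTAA
mt-Nd4l and mt-Nd4: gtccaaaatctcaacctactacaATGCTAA

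A second source of shared reads is a run of 7 annotated pseudogenes on the minus strand of nuclear chromosome 1, between 24611535 and 24616197 (mm10), which copy 7 of the 13 mRNA genes. Whether reads that fit both gene and copy were divided or counted at both is not given in the sources used here. If they were counted at both, values below with the copies' counts added hold such reads more than once. The copies of mt-Co2, mt-Atp6, mt-Co3, mt-Nd4l and the first 876 bases of mt-Nd4 had 0 differing bases over their aligned length. Those of mt-Nd3 and of the last 483 bases of mt-Co1 had 1 each. Both differences are shown, in capitals, from GENCODE M21 transcripts, with positions counted from the gene's first base (T3C for mt-Nd3 against Gm28438, A1066T for mt-Co1 against Gm29216, mitochondrial base first). The stretches are chrM:9459-9488 and chr1:24613090-24613119 for the first pair, and chrM:6390-6419 and chr1:24616159-24616188 for the second.
mt-Nd3: atTaacctgtacactgttatcttcattaat
Gm28438: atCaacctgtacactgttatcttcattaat
mt-Co1: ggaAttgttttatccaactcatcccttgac
Gm29216: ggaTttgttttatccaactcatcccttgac

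The 6 libraries held between 29274603 and 38703606 counts. Kifc1 itself, the check of the labels, stood at 14.7 to 16.1 CPM (counts per 1000000 counts, scaled by the TMM method) in wild type and at 0.281 to 0.736 CPM in knockout. Germ cell markers fitted testis, with 8 elongating spermatid genes summing to between 16257 and 23806 CPM, and the epididymal genes Lcn5 and Crisp1 were at 0 in every sample. Knockout samples 1 and 3 stood apart from the other 4 libraries in most mitochondrial values below. Knockout 2 is therefore also given apart from the others for the mitochondrial mRNAs and the nuclear subunits of their complexes.

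The mitochondrial genome took a larger share of the counts in every knockout sample than in any wild-type sample. Its 37 genes held 0.661%, 0.912% and 0.935% of counts in wild type 1, 2 and 3 and 5.74%, 1.54% and 4.29% in knockout 1, 2 and 3. The group values were 0.836% ± 0.152 and 3.86% ± 2.13 (SD, n = 3 each). The groups did not overlap, but knockout 2 lay nearer to wild type than to the other knockouts. In whole testis, fewer or more cells of a type and less or more RNA per cell cannot be told apart.

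All 13 mRNAs rose in knockout (edgeR quasi-likelihood test, adjusted p between 0.0177 and 0.0366), against 3.11% of the 21518 genes tested that were called higher. The median log2 fold change of the 13 was 2.91, against a median of -0.0088 over all genes tested. The lowest value was 0.88 at mt-Co3 and the highest 4.30 at mt-Atp6, but with the counts of the nuclear copies added mt-Nd6 was highest, at 3.53, and mt-Atp6 had 3.12. In each of the 13 mRNAs the 3 knockout samples lay above the 3 wild-type samples, which held for 14.6% of genes tested. Knockout 1 was the highest sample for 13 of 13 and knockout 2 the lowest knockout for 13 of 13. Relative to the wild-type mean, levels ranged over the 13 mRNAs from 2.19-fold to 35.5-fold in knockout 1, from 1.38-fold to 2.51-fold in knockout 2 and from 1.77-fold to 21.4-fold in knockout 3. The upper ends in knockout 1 and 3 are mt-Atp6 without its copy, and with the copies' counts added they were 18.5-fold and 13.6-fold, both at mt-Nd6. Among wild-type samples, wild type 1 was the lowest for 11 of the 13.

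**Figure D1:**
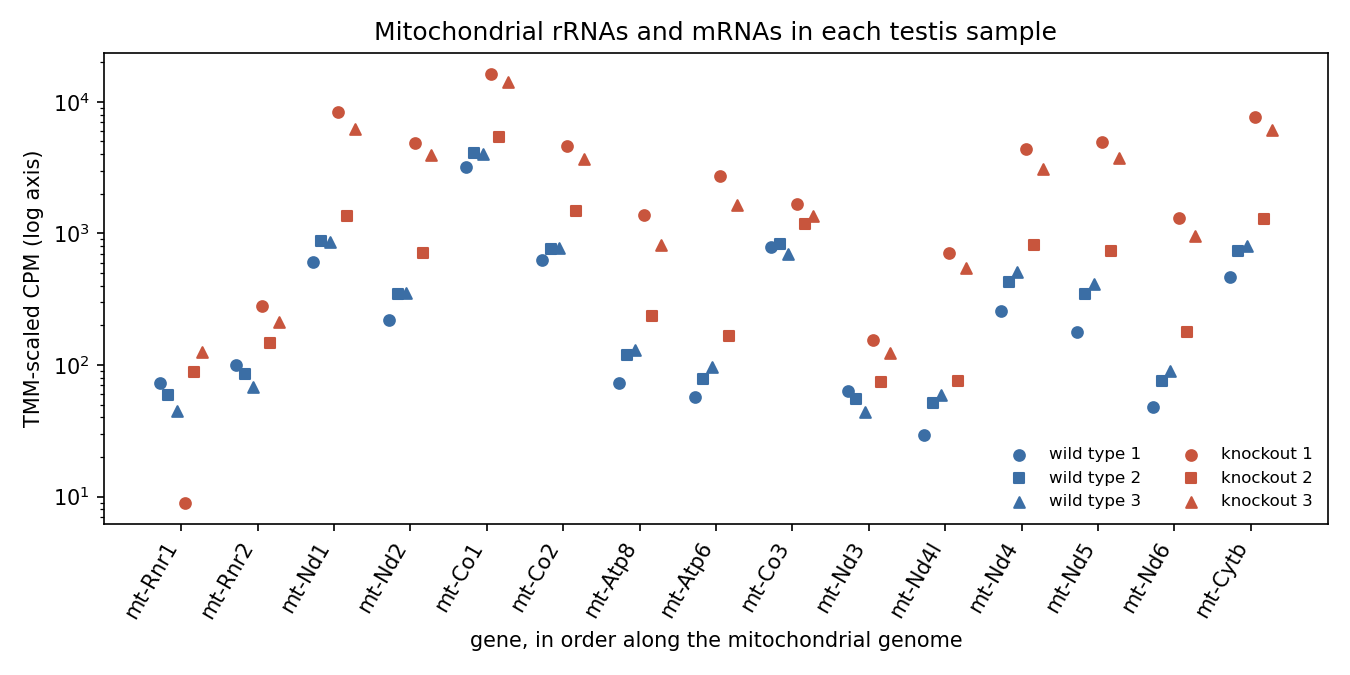
Level of the 2 rRNAs and 13 mRNAs in each sample, in TMM-scaled CPM on a log axis, with wild-type samples in blue and knockout samples in red. For every mRNA the 3 knockout points lie above the wild-type points, and knockout 1 and 3 lie well above knockout 2 except at mt-Co3 and mt-Nd3.

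The 7 complex I mRNAs encode membrane-arm subunits of NADH dehydrogenase, the entry point of electrons from NADH. mt-Nd1 (ENSMUSG00000064341, mitochondrial positions 2751 to 3707) had 605, 878 and 866.4 CPM in wild type 1, 2 and 3 and 8428, 1365 and 6205 CPM in knockout 1, 2 and 3, a log2 fold change of 2.77 (SE 0.55, adjusted p = 0.024). mt-Nd2 (3914 to 4951) stood at 220.3, 346.1 and 350.3 CPM in wild type against 4861, 712 and 3911 CPM in knockout (3.37, SE 0.60, adjusted p = 0.0196). For both genes knockout 1 and 3 lay far above knockout 2, and knockout 2 lay nearer to the wild-type samples.

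Values for mt-Nd5 (11742 to 13565), the longest of the mRNAs, were 177.3, 348.7 and 410.7 CPM in wild type against 4921, 733.4 and 3715 CPM in knockout (log2 fold change 3.32, SE 0.63). mt-Nd4 (10167 to 11544) had 256, 425.3 and 510.1 CPM in wild type against 4405, 810.2 and 3103 CPM in knockout (2.80, SE 0.54). In both genes wild type 1 was lowest and knockout 1 highest. mt-Nd4l (9877 to 10173), which precedes mt-Nd4 on the same bicistronic mRNA, stood at 29.4, 51.8 and 59.1 CPM in wild type against 713.8, 74.9 and 545.8 CPM in knockout (3.25, SE 0.69). Its knockout 2 value exceeded wild type 3 by less than the range within wild type.

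mt-Nd6 (13552 to 14070) is the single mRNA of the minus strand. Its values were 48, 75 and 89.9 CPM in wild type against 1315, 177.8 and 961.3 CPM in knockout (log2 fold change 3.53, SE 0.63, adjusted p = 0.0196). It kept to its plus-strand neighbour: counts of mt-Nd6 over counts of mt-Nd5 were 0.271, 0.215 and 0.219 in wild type and 0.267, 0.242 and 0.259 in knockout, so that the groups overlapped. The strand setting of the counting is not given, so at mt-Nd6 and the minus-strand tRNAs reads from the opposite strand cannot be told apart. mt-Nd3 (9459 to 9806) differed least within complex I, at 63, 54.8 and 43.9 CPM in wild type against 154.5, 74.2 and 124 CPM in knockout (1.12, SE 0.26, adjusted p = 0.0366). Here wild type 1 was the highest wild-type sample, unlike for the other 6 complex I genes.

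mt-Cytb (14145 to 15288) encodes cytochrome b, the one mitochondrially encoded subunit of complex III. It stood at 462.5, 741.1 and 804.4 CPM in wild type against 7620, 1296 and 6133 CPM in knockout (log2 fold change 2.91, SE 0.56, adjusted p = 0.0222). The pattern over samples was that of mt-Nd1, with knockout 2 at 1.94-fold the wild-type mean.

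The 3 complex IV mRNAs encode the catalytic core of cytochrome c oxidase and had smaller fold changes than the complex I genes other than mt-Nd3, a difference that was not tested. mt-Co1 (5328 to 6872), whose product holds the oxygen-reducing centre, had the highest CPM of the mitochondrial mRNAs in all samples, at 3197, 4081 and 4014 CPM in wild type against 16166, 5434 and 14054 CPM in knockout (log2 fold change 1.66, SE 0.35, adjusted p = 0.0289). mt-Co2 (7013 to 7696), whose product takes electrons from cytochrome c, stood at 624, 767 and 777.7 CPM in wild type against 4646, 1468 and 3674 CPM in knockout (2.17, SE 0.37). mt-Co3 (8607 to 9390) stood at 788.4, 826 and 693.1 CPM in wild type against 1687, 1188 and 1360 CPM in knockout (0.88, SE 0.17, adjusted p = 0.0226). It had the smallest fold change of the 13 mRNAs, and its 3 knockout samples lay closer together, relative to their mean, than those of any other mRNA.

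Complex V, the ATP synthase, has 2 mitochondrial genes, both for subunits of its membrane part. mt-Atp8 (7766 to 7969) stood at 72.4, 119.5 and 129 CPM in wild type against 1377, 234.5 and 809.7 CPM in knockout (log2 fold change 2.92, SE 0.55, adjusted p = 0.0213). mt-Atp6 (7927 to 8607), the proton channel subunit, stood at 56.9, 78.2 and 96 CPM in wild type against 2736, 167 and 1650 CPM in knockout (4.30, SE 0.82, adjusted p = 0.0218). Both open reading frames lie on 1 mRNA. Counts of mt-Atp8 over mt-Atp6 were between 1.27 and 1.53 in wild type and 1.40 in knockout 2, against 0.503 and 0.491 in knockout 1 and 3, but mt-Atp6 shares its reads with the nuclear copy Gm10925. With the copy's counts added to mt-Atp6, the ratio was 0.248, 0.289 and 0.274 in wild type and 0.237, 0.268 and 0.230 in knockout, and the groups overlapped.

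**Figure D2:**
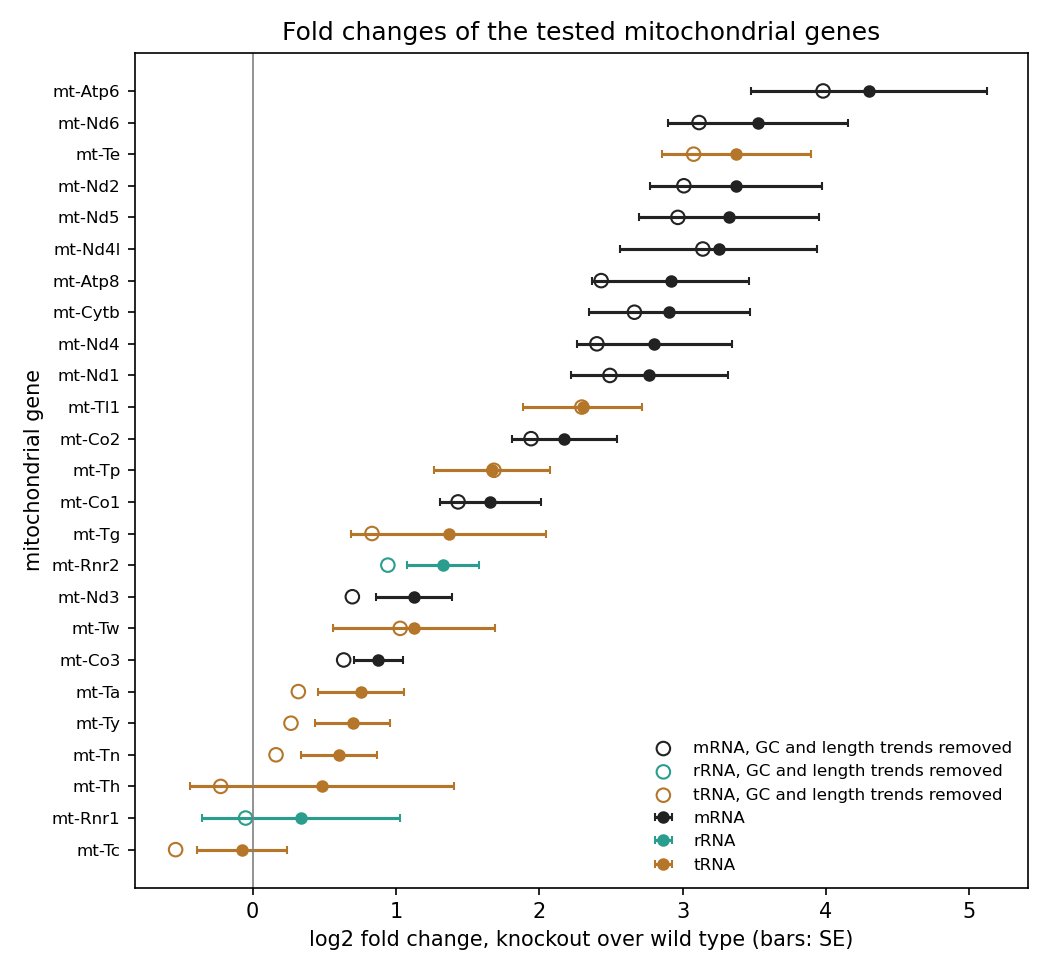
Log2 fold change, knockout over wild type, of the 25 mitochondrial genes tested, with SE bars from edgeR's fit (filled) and the value with GC and length trends removed (open). All 13 mRNAs lie right of 0 in both, with mt-Co3 lowest, and mt-Atp6 is highest as counted, at 4.30, but stands at 3.12, below mt-Nd6, with its nuclear copy's counts added.

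The make-up of the mitochondrial counts differed along with these unequal fold changes. Complex IV mRNAs held 67.6%, 63.2% and 61% of mitochondrial counts in wild type and 37.9%, 57.7% and 40.9% in knockout 1, 2 and 3. Complex I mRNAs held 20.5%, 24.3% and 25.9% in wild type and 41.7%, 28.1% and 39.8% in knockout. The share of mt-Cytb went from 8.00% ± 1.10 to 11.7% ± 2.17 and that of complex V mRNAs from 2.20% ± 0.303 to 5.02% ± 2.04 (mean ± SD, n = 3). With the copies' counts added, complex IV held 73.6%, 68.5% and 65.8% of the mRNA counts in wild type and 41.8%, 63.2% and 45.3% in knockout. Reads counted at both gene and copy would enter these last shares more than once. No test was applied to these shares. In each of the 4 complexes' shares the groups did not overlap, and knockout 2 again lay nearer to wild type than the other knockouts did.

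**Figure D3:**
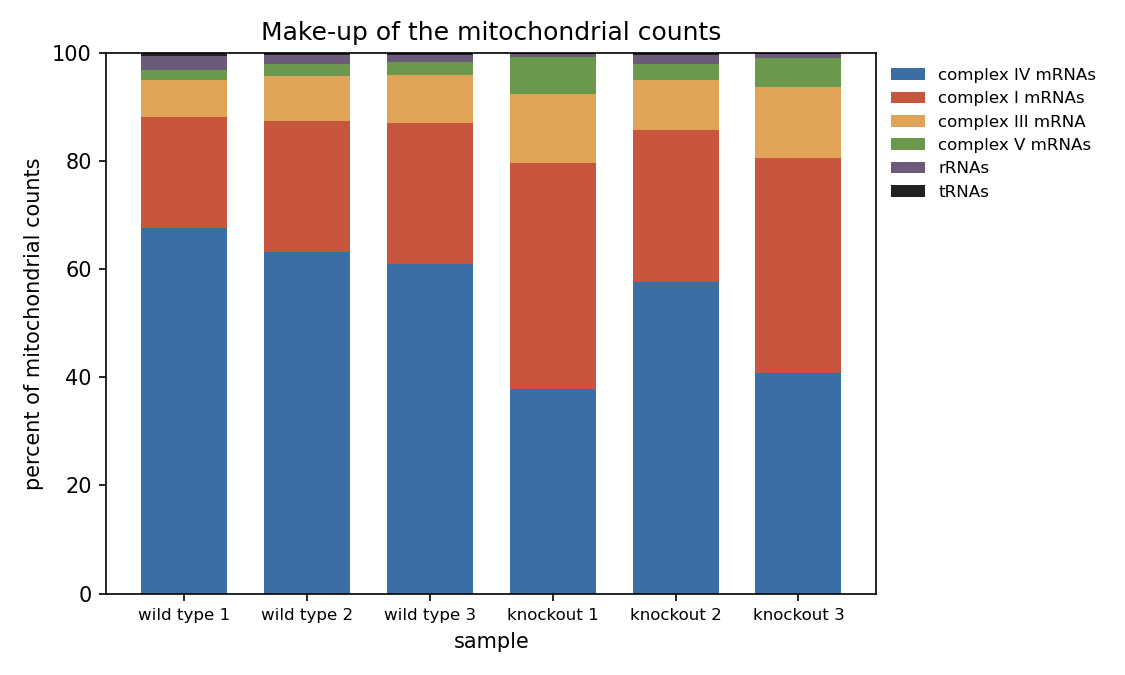
Percent of the mitochondrial counts of each sample that fell on the mRNAs of each respiratory complex, the rRNAs and the tRNAs. Complex IV mRNAs take 57.7% to 67.6% in the wild-type samples and knockout 2 and 37.9% and 40.9% in knockout 1 and 3.

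Levels between genes were compared per kb of annotated length, with the counts of each nuclear copy added to its gene, since the ratio of their counts differed from gene to gene. If shared reads were counted at both, adding the copies raises genes copied almost in full more than the other genes. The order without the copies is therefore given too. In wild type the order was led by mt-Co1 (2895 ± 359 CPM per kb), mt-Co2 (2121 ± 254) and mt-Co3 (1976 ± 174), and ended with mt-Nd5 (171 ± 66.3) and mt-Nd6 (137 ± 41). Group means of mt-Co2 and mt-Co3 differed by less than the SD of either, as did those of mt-Nd5 and mt-Nd6. Within libraries, mt-Co2 lay below mt-Co3 in wild type 1 and above it in wild type 2 and 3. mt-Nd5 lay above mt-Nd6 in every library. In knockout mt-Co2 (9594 ± 4775 CPM per kb) and mt-Co1 (8757 ± 4106) led, mt-Co3 stood at 3637 ± 651 and mt-Nd3 came last (676 ± 233). The means of mt-Co2 and mt-Co1 differed by less than the SD of either. Within libraries, mt-Co2 lay above mt-Co1 in every knockout and below it in every wild type, which was not tested. Without the copies' counts mt-Co1 led in both groups (2436 ± 319 and 7692 ± 3680 CPM per kb), and mt-Atp6 was last in wild type (113 ± 28.8, against 577 ± 134 with its copy). Across the 13 mRNAs the log2 fold change had a Spearman rho of -0.75 with the wild-type level per kb when copies were added and -0.66 when not, and of -0.25 with GC content and -0.11 with length when not. Fold change and wild-type level share the same wild-type libraries, and genes are not independent replicates, so these are descriptions.

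The nuclear copies on chromosome 1 mirrored the genes they copy. The 4 genes mt-Co2, mt-Co3, mt-Nd3 and mt-Nd4l were copied over all but 1 to 3 of their bases. Their counts divided by the copy's were between 0.967 and 1.01 in all 6 samples, so gene and copy held about equal counts. Whether shared reads were divided between gene and copy or counted at both cannot be told from these counts. mt-Atp6, copied to the same extent, did not have counts equal to its copy's, as given below. Gm28661, the copy of mt-Co2, accordingly stood at 626.8, 773.2 and 783.3 CPM in wild type against 4667, 1484 and 3747 CPM in knockout (log2 fold change 2.18, SE 0.37, adjusted p = 0.0176). Gm29216, the copy of the end of mt-Co1, had 638.1, 760 and 729.5 CPM in wild type against 2117, 892.6 and 1926 CPM in knockout (1.21, SE 0.29, adjusted p = 0.0388). The 7 copies together held between 0.240% and 0.300% of counts in wild type and 1.46%, 0.519% and 1.06% in knockout 1, 2 and 3. The levels of the 7 copied mRNAs above are therefore uncertain, and with each copy's counts added to its gene all 13 mRNAs again passed the test, when 3.07% of genes tested were called higher.

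The ratio of a gene's counts to its copy's differed between libraries for mt-Atp6 and mt-Nd4, and knockout 1 and 3 parted from the other 4 libraries. The copies in this paragraph were singled out after their values were seen. Counts of mt-Atp6 were 0.241, 0.233 and 0.256 of those of its identical copy Gm10925 in wild type and 0.236 in knockout 2, but 0.893 and 0.881 in knockout 1 and 3. Gm10925 has no overlapping copy of mt-Atp8 in the annotation. Its log2 fold change was 2.58 (SE 0.46, adjusted p = 0.0196) against 4.30 for mt-Atp6, and gene and copy added together gave 3.12 (SE 0.57).

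Counts of mt-Nd4 over Gm28439, the copy of its first 876 bases, were 3.26, 3.11 and 3.14 in wild type and 2.87 in knockout 2, but 1.63 and 1.65 in knockout 1 and 3. For mt-Co1 over Gm29216, the copy of its last 483 bases, the values were 5.01, 5.37 and 5.50 in wild type and 7.64, 6.09 and 7.30 in knockout. A change in where reads lay along the gene and a change in how shared reads were assigned cannot be told apart from these counts. The part of this difference between libraries in the fold changes was not tested.

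**Figure D4:**
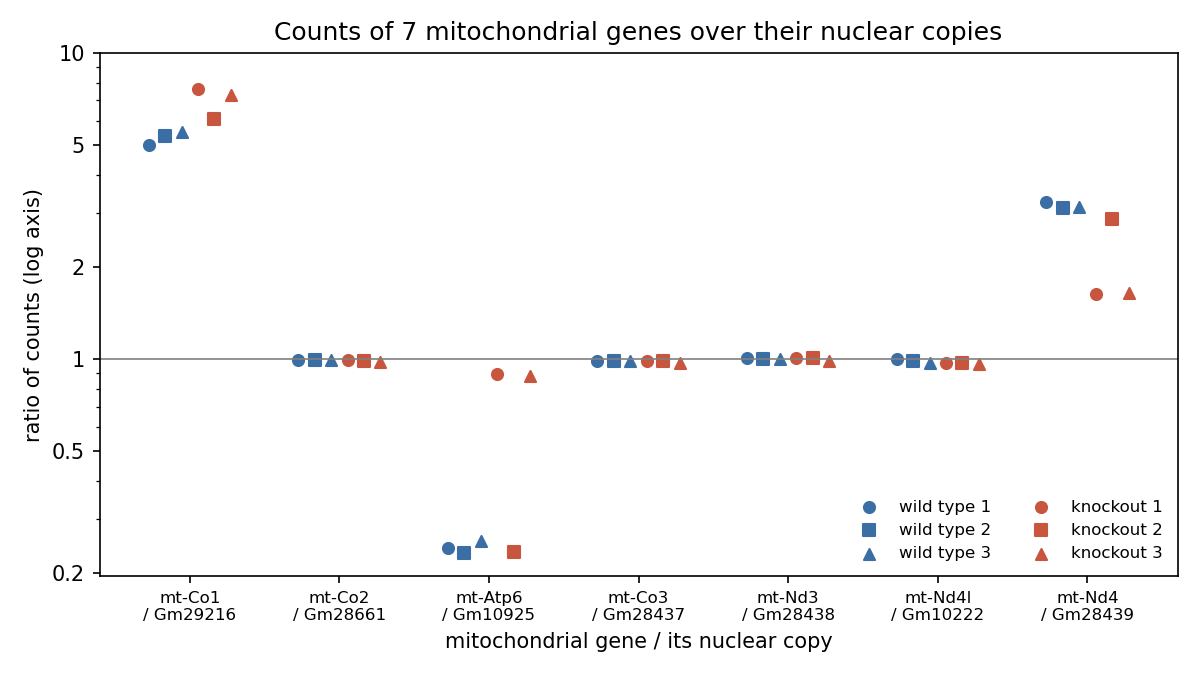
Counts of 7 mitochondrial genes divided by the counts of their nuclear copies on chromosome 1, per sample, on a log axis with a grey line at 1. mt-Co2, mt-Co3, mt-Nd3 and mt-Nd4l lie on the line in every sample, whereas knockout 1 and 3 part from the other libraries at mt-Atp6 and mt-Nd4.

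The 2 rRNAs form the RNA of the small and large mitochondrial ribosomal subunits, and 1 of them passed the test. mt-Rnr2 (1094 to 2675), the large-subunit rRNA, stood at 100.6, 86.1 and 67.5 CPM in wild type against 280.6, 145.6 and 212.7 CPM in knockout and rose (log2 fold change 1.33, SE 0.25, adjusted p = 0.0209), a call that was lost when any single sample except knockout 2 was left out. mt-Rnr1 (70 to 1024), the small-subunit rRNA, stood at 73.2, 59.2 and 44.6 CPM in wild type against 8.98, 88.8 and 126 CPM in knockout (0.34, SE 0.69, adjusted p = 0.791). Knockout 1 was the lowest sample for mt-Rnr1 and the highest for mt-Rnr2, with 331 and 10337 counts. Counts of mt-Rnr1 over mt-Rnr2 were between 0.661 and 0.728 in wild type, 0.610 and 0.592 in knockout 2 and 3, and 0.0320 in knockout 1. Without knockout 1, mt-Rnr1 had a log2 fold change of 0.86 (SE 0.25, adjusted p = 0.141), and without knockout 3 it turned to -0.26. Together the rRNAs held 0.0144% ± 0.00262 of counts in wild type and 0.0283% ± 0.00271 in knockout, far less than the mRNAs, in libraries made with an mRNA kit.

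Among the tRNAs, 12 of 22 had too few counts to be tested, with between 0 and 61 counts in any library, and mt-Tf and mt-Tv had no count in wild type. Of the 10 tested, 3 rose and 0 fell (edgeR; 6 higher and 0 lower at an unadjusted p under 0.05, when 12.1% of all genes tested were higher at that level; DESeq2 called 3, with 7.17% of genes called higher). The files do not tell mature tRNA from longer precursors. The 3 that rose and the 4 with the highest mean are shown as annotated, 5′ to 3′, with the anticodon in capitals. They lie at chrM:2676-2750 (plus strand), chrM:5018-5086, chrM:5089-5159, chrM:14071-14139 and chrM:15356-15422 (all minus strand).
mt-Tl1: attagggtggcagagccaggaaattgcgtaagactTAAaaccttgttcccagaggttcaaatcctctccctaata
mt-Ta: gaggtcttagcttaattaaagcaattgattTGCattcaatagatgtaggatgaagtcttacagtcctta
mt-Tn: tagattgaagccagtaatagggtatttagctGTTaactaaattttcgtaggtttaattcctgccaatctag
mt-Te: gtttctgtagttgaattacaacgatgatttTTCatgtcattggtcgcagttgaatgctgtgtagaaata
mt-Tp: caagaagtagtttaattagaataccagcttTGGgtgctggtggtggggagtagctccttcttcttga

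mt-Te, the glutamate tRNA, adjoins mt-Nd6 on the minus strand and stood at 1.23, 1.32 and 1.87 CPM in wild type against 25.9, 5.52 and 14.4 CPM in knockout (log2 fold change 3.37, SE 0.52, adjusted p = 0.0161). mt-Tl1, a leucine tRNA, lies between mt-Rnr2 and mt-Nd1 and stood at 3.70, 4.88 and 5.65 CPM in wild type against 35.3, 10.1 and 24.7 CPM in knockout (2.30, SE 0.41, adjusted p = 0.0198). mt-Tp, the proline tRNA at the end of the annotated genes, stood at 1.97, 2.42 and 2.17 CPM in wild type against 10, 3.03 and 7.82 CPM in knockout (1.67, SE 0.40, adjusted p = 0.0399). In these 3 the knockout samples kept the order seen in the mRNAs, with knockout 1 highest and knockout 2 lowest. With 1 sample left out, 0 to 4 tRNAs passed.

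A cluster of minus-strand tRNAs between mt-Nd2 and mt-Co1, mt-Ta, mt-Tn, mt-Tc and mt-Ty, did not pass. The most abundant of them, mt-Tn, the asparagine tRNA, stood at 14.9, 13.2 and 7.94 CPM in wild type against 17.3, 15 and 22.5 CPM in knockout (log2 fold change 0.60, SE 0.26, adjusted p = 0.183). mt-Ta, the alanine tRNA, stood at 10.2, 9.13 and 5.61 CPM in wild type against 13.5, 9.71 and 18.8 CPM in knockout (0.75, SE 0.30, adjusted p = 0.147). For mt-Ty the log2 fold change was 0.70 and for mt-Tc -0.07. The mRNAs on either side, mt-Nd2 and mt-Co1, differed by 3.37 and 1.66, and no test of the difference between neighbours was made.

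Calls of all 13 mRNAs rested on the set of samples. Leaving out any single sample except knockout 2 left 0 of 13 past the threshold (edgeR), although all 13 had an unadjusted p under 0.05 each time and no direction turned. Over all genes tested, the share called higher was then 0.00902%, 0.0% and 0.489% without wild type 1, 2 and 3, and 0.0% and 0.383% without knockout 1 and 3, so few calls of any kind were made. With all samples, 12.1% of genes tested were higher at an unadjusted p under 0.05 (edgeR). That share is not given here for the fits with a sample left out. The 13 mRNAs are cut from shared precursors, so they are not independent replicates. Without knockout 2 all 13 passed, at adjusted p between 0.0014 and 0.00917, with a median log2 fold change of 3.35, when 6.62% of genes tested were called higher. Knockout 2 alone against wild type gave log2 fold changes from 0.47 (mt-Nd3) to 1.33 (mt-Nd6), with a median of 1.03. In that fit the lone sample is assumed to vary like the wild-type group, so only the sizes are given here.

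**Figure D5:**
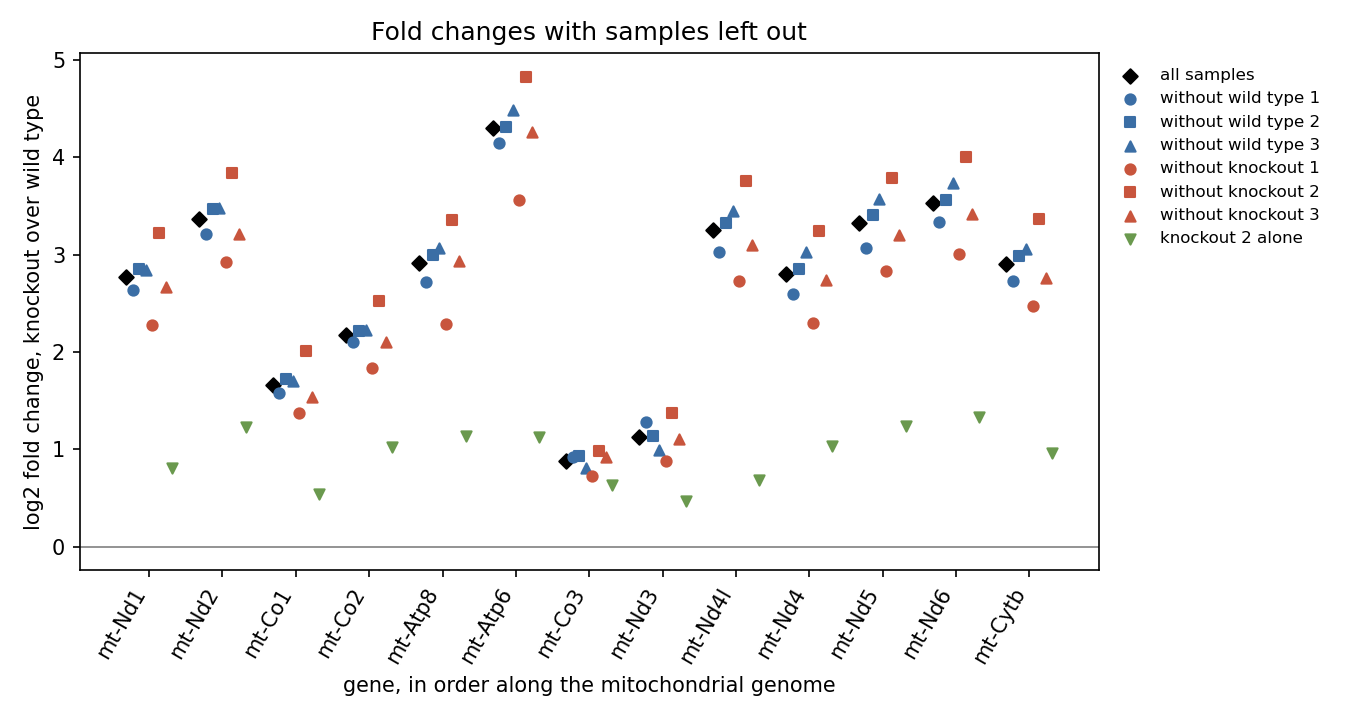
Log2 fold change of the 13 mRNAs with all samples, with each sample left out in turn and with knockout 2 alone against wild type. All points lie above 0, and the values for knockout 2 alone, from 0.47 to 1.33, are the lowest for every mRNA.

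Mitochondrial mRNAs are AT-rich, and AT-rich genes in general were higher in these knockout libraries. The 13 mRNAs have 31.9% to 41.1% GC, against a median of 49% over genes tested. Of 2208 nuclear genes with no more GC than the highest of these mRNAs (41.1%), 10.9% were called higher and 0.181% lower. Their median log2 fold change was 0.41. The copies on chromosome 1 were not taken out of this set. After correction of every library for its dependence on GC content and exon length, all 13 mRNAs still had positive log2 fold changes, from 0.63 to 3.98 with a median of 2.49, but 0 passed the threshold (edgeR, adjusted p between 0.0712 and 0.258, with 12 at an unadjusted p under 0.05 against 11.1% of genes tested). In that fit 0.0279% of all genes were called higher.

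Among 43 listed nuclear genes for the same complexes, 40 were lower in knockout by sign. The share of all genes tested below 0 is not given here, and their median log2 fold change was -0.0088. Only core subunits of complex I were listed, so its other nuclear subunits are not covered. Of 43 nuclear-encoded subunits (7 core subunits of complex I, 9 of complex III, 12 of complex IV and 15 of complex V), 18 fell and 1 rose, against 5.12% of genes tested called lower, with a median log2 fold change of -0.71. In 27 of the 43 all knockout samples lay below all wild-type samples, against 18.1% of genes tested. Complex by complex, 3 of 7, 6 of 9, 4 of 12 and 5 of 15 fell. Cyc1, the cytochrome c1 of complex III, dropped from 50.2 ± 7.99 CPM to 21.1 ± 1.70 CPM (-1.25, SE 0.17, adjusted p = 0.0161), and Uqcr11, a small subunit of the same complex, fell to a like degree (-1.21, SE 0.18). Cox5a of complex IV fell from 159.5 ± 9.96 to 81.5 ± 5.63 CPM (-0.97, SE 0.14), with the testis isoform Cox6b2 (-0.74, SE 0.15). Atp5g2 and Atp5g1, which both encode the c ring of ATP synthase, fell by 1.12 and 0.73 on the log2 scale, and Ndufv1 and Ndufs3 of complex I fell by 0.92 and 0.71. Uqcrb, of complex III, was the one that rose (29.8 ± 3.80 to 49.7 ± 4.77 CPM), and was chosen after its value was seen.

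Knockout 2, whose mitochondrial mRNA levels were the lowest of the knockouts, was the highest knockout for 26 of the 43 nuclear subunits, and knockout 1 was the lowest for 31. The share of all genes tested with that order was not computed, so the order may not be particular to these subunits. Knockout 2 alone against wild type put 38 of 43 below 0, with a median of -0.55. The share of all genes below 0 in that fit is not given here. The summed level of the 43 was 6126, 5266 and 4589 CPM in wild type against 3098, 3628 and 3766 CPM in knockout 1, 2 and 3. The 13 mitochondrial mRNAs summed to 1.08, 1.67 and 1.93 times that level in wild type and to 19.1, 3.79 and 12.3 times in knockout. With the GC and length trends removed, 1 of the 43 nuclear subunits was called lower and 0 higher (edgeR, 28 lower at an unadjusted p under 0.05), with a median of -0.47, when 0.0929% of genes tested were called lower. No nuclear subunit was called lower without wild type 1, wild type 2 or knockout 1 (edgeR, 23 or 24 at an unadjusted p under 0.05). The share of all genes tested that was called lower was then 0.0135%, 0.00452% and 0.00454%. Without wild type 3 or knockout 3, 5 subunits were called lower, against 1.44% and 1.09% of genes tested. Without knockout 2, 22 were called lower, against 7.69%. For the fits with trends removed or a sample left out, the share of all genes lower at an unadjusted p is not given here.

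None of 29 listed factors that make or handle mitochondrial RNA passed the test. Of these genes 0 rose and 0 fell (edgeR), against 3.11% and 5.12% of genes tested. At those shares few calls would fall in a list of this size, so their absence is not a result about these factors. At an unadjusted p under 0.05, 2 were higher and 2 lower, and DESeq2 called 1. The median log2 fold change of the 29 was 0.012. Polrmt had 36, 34 and 33.6 CPM in wild type against 25, 15.6 and 35.8 CPM in knockout (-0.44, SE 0.27, adjusted p = 0.326). Tfam, which packages and bends mitochondrial DNA, had 98.3, 83.5 and 91.3 CPM in wild type against 80.7, 131.1 and 63.9 CPM in knockout (0.014, SE 0.25). Lrpprc, which stabilises mitochondrial mRNAs, had 38.5, 40.7 and 41.2 CPM in wild type against 36.1, 48.9 and 36.3 CPM in knockout (0.012, SE 0.17). Knockout 2 was the lowest sample for Polrmt and the highest for Tfam and Lrpprc, and alone against wild type it gave -1.14, 0.53 and 0.29, with adjusted p of 0.0938, 0.183 and 0.435. Pnpt1, a nuclease that degrades mitochondrial RNA, had 0.53 (SE 0.17, adjusted p = 0.0894, DESeq2 adjusted p = 0.0305), and Tbrg4 had -0.48 (SE 0.18). Of 17 genes of mitochondrial DNA maintenance, 0 rose and 1 fell, or 5.88% against 5.12% of genes tested. That 1 gene, Polg, the mitochondrial DNA polymerase, went from 119.8 ± 12.3 to 71.6 ± 5.52 CPM (-0.74, SE 0.14, adjusted p = 0.0227). Primpol, a primase-polymerase, had 1.05 (SE 0.28, adjusted p = 0.0548).

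Among 12 genes of the sperm mitochondrial sheath, 1 rose and 2 fell, or 8.33% and 16.7% against 3.11% and 5.12% of genes tested. Smcp, of the mitochondrial capsule, followed the split of the libraries, at 1548, 1932 and 1859 CPM in wild type against 7577, 2203 and 9254 CPM in knockout (log2 fold change 1.83, SE 0.44, adjusted p = 0.0384). Gpx4, a peroxidase of that capsule, fell, at 1980, 1594 and 1323 CPM in wild type against 748.7, 923.9 and 980.3 CPM in knockout (-0.88, SE 0.19), and the piRNA nuclease Pld6 of the mitochondrial surface fell by 1.03 on the log2 scale. For Gpx4 knockout 1 was the lowest sample and knockout 2 lay between the other knockouts.

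Of 72 testis, blood and epididymis markers tested, 4 rose (5.56%) and 5 fell (6.94%), near the 3.11% and 5.12% of all genes tested, so the counts by list below are not results about a cell type. Of 8 pachytene spermatocyte genes 2 rose (Sycp1 and Mybl1), of 8 round spermatid genes 1 rose (Spaca7, with Acrv1 not past the threshold), of 8 elongating spermatid genes 2 fell (Prm1 and Tnp2) and of 8 spermatogonial genes 1 fell (Sohlh1, with Uchl1 not past the threshold). Of 8 Sertoli cell genes Rhox8 rose and Amhr2 fell, and summed levels were 935 to 1318 CPM in wild type and 1150 to 1767 CPM in knockout. None of 8 Leydig, 6 myoid, 7 immune and 6 endothelial genes was called (edgeR; at an unadjusted p under 0.05, 3, 0, 1 and 0 were higher and 0, 0, 0 and 1 lower, and DESeq2 called 3, 0, 0 and 0). The Leydig markers, from cells rich in mitochondria, summed to 700 to 1478 CPM in wild type and 1192 to 1720 CPM in knockout, so that the groups overlapped. The lowest-p genes of these 4 lists were Cyp17a1 and Hsd17b3, Myh11 and Myl9, Cd68 and C1qa, and Pecam1 and Egfl7. Of 5 tested genes of blood and epididymis 1 fell, the erythroid gene Alas2, with Hbb-bs not past the threshold. The part of cell composition in the mitochondrial values was not tested.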

How the data were processed

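The deposited files hold raw counts per Ensembl gene, 1 file per sample, which the authors had not normalized. The submitters' processing notes name Trimmomatic, HISAT2, HTSeq and mm10. No version, annotation, strand setting or treatment of multiply mapped reads is given in the sources used here. Symbols, positions and transcript sequences came from GENCODE M21 (GRCm38), which matched 51633 of 51826 identifiers. The test was edgeR 4.0.16 (quasi-likelihood, TMM, filterByExpr, R 4.3.3) on all 6 samples and 21518 genes, two-sided, with Benjamini-Hochberg adjustment over all genes and a threshold of 0.05. SE is the fold change divided by the square root of F. DESeq2 1.42.0 was an alternative. Trends with GC content and exon length were splines with 5 degrees of freedom, fitted on nuclear genes. Copies were found with blastn 2.17.0 and aligned with Biopython 1.88. The fit was also run on counts simulated from these data with known changes, and the outcome of that run is not given here.

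Members, lists and tests were chosen with earlier results of these data known. All 37 mitochondrial genes are accounted for. The rule for sample values took the mRNAs, the rRNAs, the 4 tRNAs with the highest mean CPM and the 2 with the smallest p, and the 2 nuclear copies with the highest mean. The rule for names took Kifc1, Smcp, Gpx4, Polrmt, Tfam and Lrpprc and the 2 genes of each other list with the smallest p, which are given by sample, by a mean or fold change, or by name only. Values of mt-Tp, mt-Ty and mt-Tc and of the other copies were chosen after they were seen. Since no label says that samples came from separate animals, p-values cover only the spread among the 6 samples, and that spread may be technical. Chi-square per degree of freedom between samples of a group was 15.4 to 135.1, so no 2 agreed within sampling noise. A floor of 3 counts is 0.0775 to 0.102 CPM and covers counting error only.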

Additional observations from a re-analysis of the deposited data

How the results depend on the processing

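Across DESeq2 size factors, library size alone, scaling from nuclear genes, the filter of at least 1 CPM in 3 samples and the DESeq2 test, the 13 mRNAs, 1 rRNA and 3 tRNAs passed each time. Calls over all genes were 1770, and 1010 without a filter (12 mRNAs, 2 tRNAs) and 3305 with DESeq2. With the GC and length trends removed there were 26 calls in all, with 0 mRNAs, 0 rRNAs and 0 tRNAs. A replicate block gave 21 calls in all, 0 mRNAs, 0 rRNAs and 1 tRNA, and the replicate block with trends removed gave 6, 0, 0 and 0. Same-numbered samples did not deviate together (r = -0.286, -0.0558 and -0.126 over 21518 genes). Whether the samples were paired by number when they were made cannot be settled from these values. Leaving out 1 sample gave 1 to 3149 calls in all, 0 to 13 mRNAs, 0 to 1 rRNA and 0 to 4 tRNAs, and a difference in mitochondrial share of 2.08 to 4.18 percentage points against 3.02. By sample, calls in all were 5, 1 and 425 without wild type 1, 2 and 3 and 1, 3149 and 327 without knockout 1, 2 and 3. Chosen after seeing the data, knockout 2 alone gave 2 calls in all, 0 mRNAs, 0 rRNAs and 0 tRNAs. Adding the copies' counts gave 1760 calls in all and moved mt-Atp6 from 4.30 to 3.12.

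Directions of all mRNAs, mt-Rnr2, mt-Te, mt-Tl1, mt-Tp, mt-Tn and mt-Ta held in all 17 alternatives. mt-Rnr1 (0.34) turned to -0.14 with the replicate block, -0.049 with trends removed, -0.60 with both and -0.26 without knockout 3 (0.86 without knockout 1). Tfam (0.014) turned to -0.052 with the block, -0.13 with trends removed, -0.19 with both, -0.047 without wild type 2 and -0.33 without knockout 2 (at most 0.24 with 1 sample left out). Lrpprc (0.012) turned to -0.0016, -0.17 and -0.19 in those 3 fits and -0.15 without knockout 2 (at most 0.10 with 1 sample left out). With trends removed Polrmt (-0.44) went to 0.0045 and Rn7sk (-0.26) to 0.20, or 0.15 with the block too, when C1qa (-0.56) went to 0.023. The causes were not tested. Depth limits the 12 tRNAs that were not tested.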

Other observations

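Of 35 tested genes listed as replication-dependent histone genes, 0 rose and 0 fell (edgeR; 1 higher and 8 lower at an unadjusted p under 0.05, DESeq2 called 4). Their median log2 fold change was -0.44, or -0.01 with GC and length trends removed. As a class such mRNAs end in a stem-loop and not in a poly(A) tail, but this was not checked for each gene. The list also holds Hist3h2bb-ps, whose symbol marks a pseudogene. Its values are therefore not a control for RNA without a poly(A) tail. The pair with the smallest p were Hist1h4h (-1.36, SE 0.36, adjusted p = 0.0528) and Hist1h2bp (-0.84, SE 0.23). Malat1, a nuclear RNA, varied widely within both groups, at 11.1, 29 and 51.6 CPM in wild type and 63, 77 and 20.6 CPM in knockout (0.81, SE 0.57). Rn7sk, of the 7SK particle, was at 2.02 ± 0.489 and 1.69 ± 0.764 CPM (-0.26, SE 0.37). Among the histone genes Hist1h2bc, chosen after its value was seen, had the one positive difference at an unadjusted p under 0.05 (0.95, SE 0.26, adjusted p = 0.0590).

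The aspartate tRNA gene mt-Td, chosen after its values were seen, had 1, 2 and 1 counts in wild type and 4, 60 and 4 in knockout 1, 2 and 3. Its highest count was thus in knockout 2, the knockout with the lowest mRNA levels. mt-Tm, the methionine tRNA, had 7, 5 and 6 counts in wild type and 61, 3 and 26 in knockout, with knockout 2 at or below the wild-type counts.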
